A study of Mus musculus with 12 samples.

Results

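The 35 genes described here encode enzymes that build cholesterol, fatty acids and glycerolipids, and the SREBP transcription factors that govern such enzymes. They also encode the SREBP retention protein INSIG1, the sterol carrier STARD4, a liver X receptor (LXR) and 3 LXR targets. They were chosen by symbol, as members of these pathways, with earlier results of these data known. All 35 were found among the 45777 genes listed, and all 35 were among the 15197 genes tested, which had at least 0.5 FPKM (fragments mapped to a gene, scaled to its length and to the size of the library) in at least 3 samples. By role, 8 act from acetoacetyl-CoA to squalene, 10 from squalene to cholesterol, 4 are SREBP factors or handle sterol, 9 make fatty acids and glycerolipids, and 4 belong to the LXR arm.

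CD4+ T cells from the spleens of wild type C57BL/6 mice, aged 7 weeks by the labels, were cultured for 3 days with anti-CD3 at 0.5 µg/ml, an antibody that triggers the T cell receptor. Every group received anti-CD3. The groups were Control (no drug named), Metformin (a diabetes drug that inhibits the respiratory chain), FK506 (tacrolimus, which blocks calcineurin and so the transcription factor NFAT) and Metformin+FK506, called the combination below, with 3 samples each. The doses of the drugs in these cultures are not given in the sources used here. Polyadenylated RNA was sequenced, and between 43402632 and 64290105 reads were counted per sample. The labels do not say whether the 3 samples of a group came from separate mice or cultures, so p-values measure only the spread between these samples, which may be technical.

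In animal cells, SREBP precursors sit in the endoplasmic reticulum and are held there by INSIG proteins while sterol is plentiful. When sterol runs low they are carried onward, cut and sent to the nucleus, where SREBP2 mainly drives the cholesterol pathway and SREBP1 mainly drives fatty acid synthesis. LXRs respond to oxidised sterols, raise cholesterol export through ABCA1 and ABCG1, and raise MYLIP, a ubiquitin ligase that marks lipoprotein receptors for breakdown. Dividing T cells need both lipids for new membrane, and T cell activation is known to switch the synthesis genes on.

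The T cell label was checked against its markers, and the 12 T cell markers (Cd3e, Cd4, Lck and others) summed to 2525 to 2577 FPKM in Control, 2399 to 2505 with metformin, 2098 to 2215 with FK506 and 2236 to 2319 with the combination. Markers of other cells differed far more between groups. The 10 myeloid markers (Lyz2, C1qa, Marco and others) summed to 6.52 to 6.77 FPKM in Control and 8.94 to 10.2 with metformin, against 1469.8 to 1533 with FK506 and 1029 to 1151 with the combination. Lyz2 weighed most in the last 2 sums, with a mean of 981 FPKM with FK506 and 539 with the combination. Of the 10, 3 were called higher and 2 lower with the combination than with FK506, by the test described below. The 10 B cell markers summed to 51.7 to 54.0 FPKM in Control, 68.4 to 76.7 with metformin, 852 to 902 with FK506 and 418 to 449.9 with the combination. The 10 cell division genes (Mki67, Top2a, Cdk1 and others) summed to 414 to 440.2 FPKM in Control, 319 to 336 with metformin, 129 to 134 with FK506 and 76.7 to 80.8 with the combination. The 2 CD8 markers summed to 9.01 to 9.52 FPKM in Control, 12.9 to 13.2 with metformin, 6.84 to 7.35 with FK506 and 6.93 to 8.64 with the combination. In bulk RNA, fewer cells of a type and less RNA per cell cannot be told apart.

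**Figure D1:**
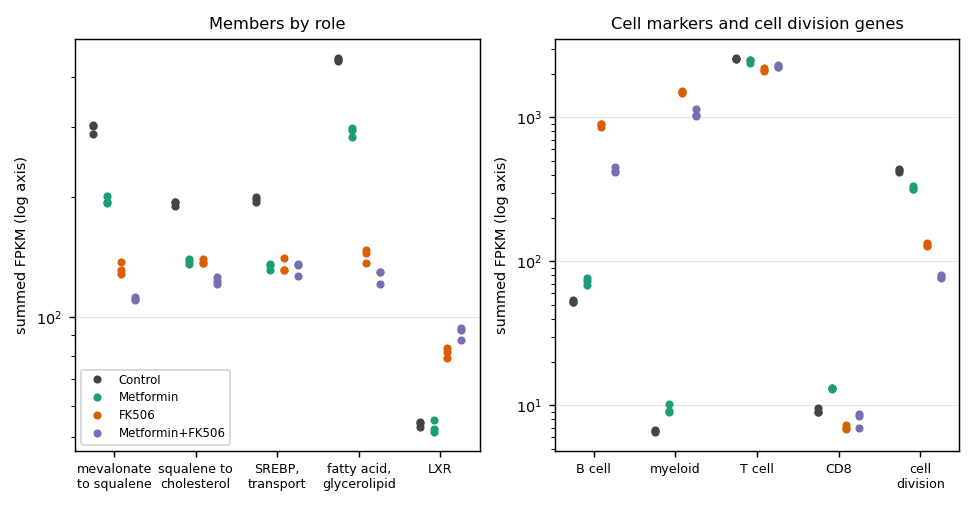
Summed FPKM (log axis) of the members by role (left) and of marker lists (right), with 1 point per sample and 4 groups. Myeloid markers lie between 1029 and 1533 in the 6 samples with FK506 and between 6.52 and 10.2 in the 6 without it, and fatty acid genes go from 438 to 446 in Control to 121 to 129.6 with the combination.

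With metformin alone, most genes of the pathway fell and the LXR arm split. Of the 35 members, 27 were lower than in Control, 3 were higher and 5 did not pass the test (edgeR's quasi-likelihood test, Benjamini-Hochberg adjusted p under 0.05 over all genes tested). Of all genes tested, 56% passed, 27.4% lower and 28.6% higher. FPKM values of the 2 groups did not overlap for 32 members and for 65% of all genes tested. The median log2 fold change of the members was -0.51, beside 0.01 over all genes. The largest falls were in Fads2 (log2 fold change -2.07), the desaturase that opens polyunsaturated fatty acid synthesis, Lss (-1.25) and Acat2 (-1.10). The 3 that rose were the exporter Abcg1 (1.02), Mylip (0.93) and the phosphatidate phosphatase Lpin1 (0.18). Mvk, Pmvk, Tm7sf2, Ebp and Sc5d did not pass, with log2 fold changes between -0.24 and 0.21. The call for the desaturase Fads1 (-0.17, adjusted p = 0.0432) was lost without any 1 of Control replicates 1 and 2 and Metformin replicates 1, 2 and 3 (adjusted p between 0.0635 and 0.134), and that for Nsdhl without Metformin replicate 2 (adjusted p = 0.0758). Of the 10 myeloid markers, Cd68 rose (1.00, from a mean of 4.29 to 8.81 FPKM), Mpeg1 (-2.01, from 2.21 to 0.557 FPKM) and Cd5l (-2.62, at or below 0.108 FPKM) fell, and C1qa, C1qc and Spic were at 0 in all 6 of these samples. Both CD8 markers rose (Cd8a 0.73, Cd8b1 0.43). All 10 cell division genes fell in the same comparison (median -0.43), 7 of 10 B cell markers rose and 1 fell, and their part in the result was not tested.

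With FK506 alone, most synthesis genes were lower and the LXR targets were higher. Against Control, 28 members were lower, 4 were higher and 3 did not pass, where 80.9% of all genes tested passed, 39.6% lower and 41.3% higher. FPKM values did not overlap for 32 members and for 84.4% of all genes. The median was -0.89, beside 0.02 over all genes, and 15 members fell by 1 or more on the log2 scale. Fads2 (-4.93), the stearoyl-CoA desaturase Scd2 (-4.34) and Fdps (-2.29) fell most. Mylip (3.46), Abca1 (1.28), Abcg1 (1.14) and the sterol isomerase Ebp (0.25) rose. Tm7sf2, Scd1 and Nr1h2 did not pass. With libraries scaled to the 12 T cell markers instead of by TMM, the median of all genes moved to 0.51 and that of the members to -0.40, and the split became 19 lower and 9 higher. All 10 B cell and all 10 myeloid markers rose and all 10 cell division genes fell (median -1.88) in this comparison, and their part in the result was not tested.

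With the combination, 29 members were lower than in Control, 5 were higher and Tm7sf2 alone did not pass, where 81.7% of all genes tested passed, 39.6% lower and 42.1% higher. FPKM values did not overlap for 33 members and for 82% of all genes. The median was -0.99, beside 0.03 over all genes, and with scaling to the T cell markers it was -0.60, beside 0.42. Fads2 (-5.27), Scd2 (-4.76) and Fdps (-2.65) fell most, and Mylip (3.95), Abca1 (1.32) and Abcg1 (1.07) rose most. The 3 comparisons with Control share the Control samples. Abcg1 and Mylip were higher in each of them, and Tm7sf2 was called in none. All 10 B cell and all 10 myeloid markers rose here too, all 10 cell division genes fell (median -2.76), and their part in the result was not tested.

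**Figure D2:**
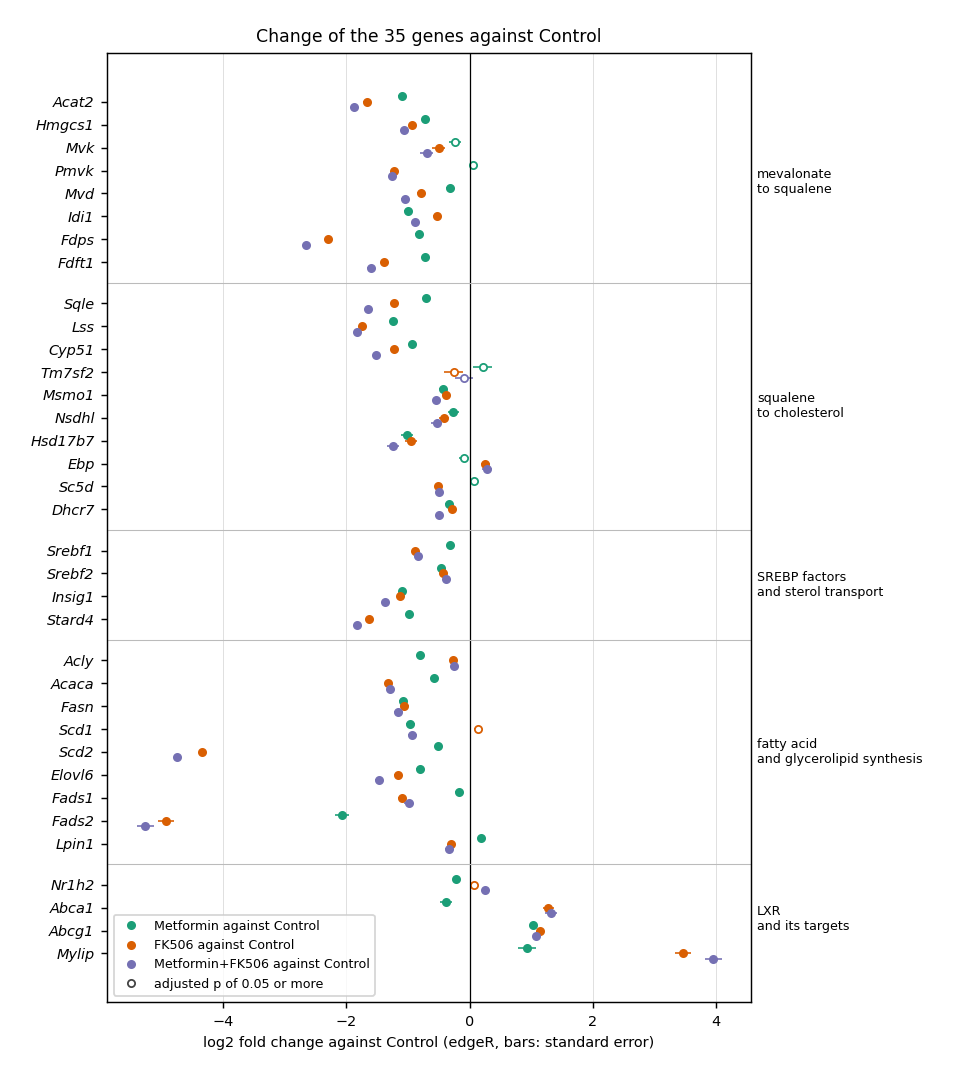
Log2 fold change against Control (edgeR, horizontal axis, bars are the standard error) of each of the 35 genes, grouped by role, for metformin, FK506 and the combination; open circles did not pass the test. Points left of 0 fill the synthesis groups, down to -5.27 for Fads2 with the combination, and the LXR targets reach 3.95 for Mylip.

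When metformin was added to FK506, 6 of the 8 genes from acetoacetyl-CoA to squalene, 4 of the 10 from squalene to cholesterol and both stearoyl-CoA desaturases were lower. Against FK506 alone, 15 members were lower with the combination, 2 were higher and 18 did not pass, where 30.7% of all genes tested passed, 15% lower and 15.6% higher. FPKM values did not overlap for 19 members and for 38.6% of all genes. The median was -0.14, beside 0.00 over all genes. With scaling to the T cell markers it was -0.24, beside -0.10, and 22 members were lower and 1 higher. The largest falls were in Scd1 (-1.06), Sqle (-0.42) and Scd2 (-0.41), and the members that rose were Mylip (0.49) and Nr1h2 (0.18). Leaving out 1 library at a time gave 12 to 16 lower. The call for Acat2 (-0.20, adjusted p = 0.0186) was lost without FK506 replicate 1 (adjusted p = 0.0804), and that for Hmgcs1 (-0.14, adjusted p = 0.0334) without FK506 replicate 1 (adjusted p = 0.11), Metformin+FK506 replicate 1 (0.0866) or Metformin+FK506 replicate 3 (0.0812). Hsd17b7 lost its call without any 1 of FK506 replicates 1 and 2 and Metformin+FK506 replicates 1 and 3 (adjusted p between 0.0552 and 0.134). All 10 B cell markers were lower with the combination than with FK506 (median -0.98), 3 myeloid markers were higher and 2 lower, all 10 cell division genes were lower (median -0.78), and their part in the result was not tested.

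When FK506 was added to metformin, 23 members were lower with the combination, 5 were higher and 7 did not pass, where 78.2% of all genes tested passed, 37.9% lower and 40.3% higher. FPKM values did not overlap for 27 members and for 78.2% of all genes. The median was -0.46, beside 0.02 over all genes. Scd2 (-4.25), Fads2 (-3.20) and Fdps (-1.82) fell most, and Mylip (3.02), Abca1 (1.71) and Acly (0.54) rose most. With limma on log2(FPKM + 1) the split was 20 lower and 9 higher and the median -0.25, beside 0.14 over all genes, and with scaling to the T cell markers 17 lower and 12 higher and -0.15, beside 0.34. Hsd17b7 (-0.23) lost its call without any 1 of Metformin replicates 1 and 3 and the 3 Metformin+FK506 replicates (adjusted p between 0.059 and 0.155), and Dhcr7 (-0.15) without Metformin replicate 3 (adjusted p = 0.052) or Metformin+FK506 replicate 2 (adjusted p = 0.0834). All 10 B cell and all 10 myeloid markers were higher and all 10 cell division genes lower (median -2.28), and their part in the result was not tested.

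The first steps, from acetoacetyl-CoA to squalene, are the trunk of the pathway that also feeds protein prenylation, and most of its genes fell in each drug group. Their 8 genes summed to 288 to 303 FPKM in Control, 193 to 202 with metformin, 128 to 138 with FK506 and 110.6 to 112 with the combination, and no group overlapped another. All 8 were lower than in Control with FK506 and with the combination (39.6% of all genes tested in both comparisons), and 6 were lower with metformin (27.4%). With scaling to the T cell markers, Mvk (-0.0154, adjusted p = 0.897) and Idi1 (-0.0498, adjusted p = 0.436) lost their calls with FK506. Acat2 (gene ID 110460), the cytosolic thiolase that joins acetyl-CoA units, was at 22.0, 21.5 and 22.4 FPKM in Control, 10.8, 10.6 and 9.90 with metformin, 8.50, 7.67 and 7.90 with FK506 and 6.97, 6.89 and 6.67 in the combination. Its 4 groups did not overlap, and Control was the highest (metformin against Control log2 fold change -1.10, SE 0.058, adjusted p = 1.3e-10, FK506 against Control log2 fold change -1.67, SE 0.059, adjusted p = 1.34e-13). Hmgcs1 (gene ID 208715), the synthase that makes HMG-CoA, was at 42.1, 44.1 and 45.0 FPKM in Control, 26.5, 26.5 and 27.9 with metformin, 27.4, 26.8 and 25.5 with FK506 and 23.3, 25.2 and 23.0 in the combination. The 3 Control samples were above all 9 others, and metformin and FK506 overlapped (metformin against Control log2 fold change -0.72, SE 0.046, adjusted p = 1.28e-09, FK506 against Control log2 fold change -0.93, SE 0.046, adjusted p = 1.06e-11). Fdps (gene ID 110196), which makes farnesyl diphosphate, was at 111, 119 and 114 FPKM in Control, 66.5, 69.9 and 61.5 with metformin, 29.1, 25.2 and 26.2 with FK506 and 20.3, 21.1 and 20.3 in the combination. The groups were apart, and Fdps fell with metformin (log2 fold change -0.83, SE 0.054, adjusted p = 1.67e-09) and with FK506 (log2 fold change -2.29, SE 0.057, adjusted p = 1.28e-15).

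Within this trunk Pmvk, a kinase, did not pass the test with metformin: its mean was 41.0 ± 0.647 FPKM (SD, n = 3) in Control and 43.3 ± 1.55 with metformin (log2 fold change 0.05, SE 0.044, adjusted p = 0.362), and 20.4 ± 0.349 with FK506 (log2 fold change -1.23, SE 0.046, adjusted p = 2.49e-13). Idi1, the isopentenyl diphosphate isomerase, had these 2 groups the other way round, at 27.6 ± 2.13 in Control, 14.0 ± 0.417 with metformin, 22.1 ± 0.776 with FK506 and 17.1 ± 0.876 in the combination. Fdft1, the squalene synthase, fell with metformin (log2 fold change -0.72), FK506 (-1.39) and the combination (-1.61). Mvd, the diphosphomevalonate decarboxylase, fell by less (-0.32, -0.79 and -1.05). Mevalonate kinase, Mvk, did not pass with metformin (-0.24, adjusted p = 0.0601, but -0.322 and adjusted p = 0.0273 without Metformin replicate 3) and fell with FK506 (-0.50, a call lost with the T cell marker scaling) and the combination (-0.70). These 5 genes were picked for description after their values were seen.

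Sequence just before the start sites was searched for 3 motifs on both strands, in RefSeq promoters of GRCm38.p6 (the build also called mm10) that run from 250 bases before to 50 bases after each start. Of the 35 members, 27 had a promoter in that table. The SRE-like letters TCACNCCAC were found in 1 member, Hmgcs1, and in 1.44% of all genes with a promoter. The E-box letters CACGTG were found in 5 members (Hsd17b7, Sc5d, Dhcr7, Insig1 and Abca1) and in 8.09% of all genes. CCAAT, the letters of the box that nuclear factor Y is known to bind beside SREBP, was found in 20 of the 27 members and in 41.1% of all genes, and none of the 3 motifs contains another. By role it was found in 5 of 6 genes of the trunk, 9 of 9 genes from squalene to cholesterol, 3 of 3 SREBP and sterol transport genes, 2 of 6 fatty acid genes and 1 of 3 LXR genes. A match is a description of the letters and not of binding. The stretches below hold the Hmgcs1 SRE-like match (chr13:119690184-119690252, plus strand), beginning 137 bases before the start, and an Idi1 CCAAT match (chr13:8885531-8885595, plus strand), beginning 45 bases before it, with the motif in capitals. Another Idi1 CCAAT match, beginning 14 bases before the start, is cut by the end of the stretch and is not in capitals. In Idi1 the capitals read ATTGG, which is CCAAT on the other strand. They show the letters in 2 trunk genes that fell with both drugs.
Hmgcs1: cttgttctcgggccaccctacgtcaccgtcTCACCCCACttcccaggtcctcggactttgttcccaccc
Idi1: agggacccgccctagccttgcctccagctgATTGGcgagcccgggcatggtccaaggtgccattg

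From squalene to cholesterol 7 of the 10 genes (Sqle, Lss, Cyp51, Msmo1, Nsdhl, Hsd17b7 and Dhcr7) fell in each drug group, and Tm7sf2 and Ebp fell in none. The 10 genes summed to 189 to 195 FPKM in Control, 136 to 139.7 with metformin, 137 to 139.9 with FK506 and 121 to 126 with the combination. With metformin 7 were lower and none passed the test as higher, where 27.4% and 28.6% of all genes tested did. With FK506, 8 were lower and Ebp was higher, beside 39.6% and 41.3% of all genes, and the median of -0.47 turned to 0.02 with scaling to the T cell markers, where that of all genes was 0.51. With FK506 added to metformin, 7 were lower and Ebp was higher (37.9% and 40.3% of all genes), and the median of -0.29 turned to 0.025 under that scaling, where that of all genes was 0.34. Sqle (gene ID 20775), the epoxidase that commits squalene to sterol, was at 31.9, 33.4 and 32.6 FPKM in Control, 21.1, 20.3 and 20.1 with metformin, 15.6, 16.8 and 16.1 with FK506 and 12.1, 12.4 and 11.1 in the combination. Each group lay below the one before it, in that order, with no overlap. It fell with metformin (log2 fold change -0.70, SE 0.049, adjusted p = 4.29e-09), with FK506 (log2 fold change -1.23, SE 0.050, adjusted p = 7.42e-13) and again when metformin was added to FK506 (log2 fold change -0.42, SE 0.051, adjusted p = 1.23e-05). Lss (gene ID 16987), the cyclase that makes lanosterol, was at 12.8, 13.5 and 13.2 FPKM in Control, 5.80, 5.36 and 5.61 with metformin, 4.50, 4.54 and 4.54 with FK506 and 4.58, 3.93 and 4.51 in the combination. All 3 Control samples were above the rest, and the combination overlapped FK506 alone (log2 fold change -0.08, SE 0.050, adjusted p = 0.258). With scaling to the T cell markers this change was called lower (-0.1803, adjusted p = 0.0164), beside a median of -0.10 over all genes. Lss fell with metformin alone (log2 fold change -1.25, SE 0.048, adjusted p = 2.28e-12) and with FK506 alone (log2 fold change -1.75, SE 0.049, adjusted p = 5.63e-15). The promoter of Lss held a CCAAT match (chr10:76531513-76531577, plus strand) beginning 62 bases before the start, shown because Lss fell furthest of this group with metformin.
Lss: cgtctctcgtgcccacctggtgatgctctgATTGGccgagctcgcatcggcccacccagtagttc

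Of the other 8 genes in this branch, Cyp51, the lanosterol demethylase, and Hsd17b7 fell beside Sqle and Lss in the 3 comparisons with Control, with log2 fold changes of -0.94 (metformin), -1.23 (FK506) and -1.53 (combination) for Cyp51 and -1.02, -0.95 and -1.24 for Hsd17b7. Msmo1, Nsdhl and Dhcr7 fell by less, and their changes with FK506 (-0.39, -0.42 and -0.29) turned to 0.10, 0.07 and 0.20 with scaling to the T cell markers. Ebp rose with FK506, from 13.5 ± 0.101 FPKM in Control to 18.7 ± 1.21 (log2 fold change 0.25, SE 0.080, adjusted p = 0.00777). Sc5d, a sterol desaturase, did not pass with metformin (0.07) and fell with FK506 (-0.52). With scaling to the T cell markers Sc5d lost its calls with FK506 (-0.0321, adjusted p = 0.581) and with the combination (-0.1055, adjusted p = 0.077), and Nsdhl (-0.1489, adjusted p = 0.117) and Dhcr7 (-0.105, adjusted p = 0.0893) theirs with the combination. Tm7sf2, a sterol reductase, was at 4.12, 5.04 and 5.94 FPKM in Control, 5.94, 6.28 and 5.66 with metformin, 4.21, 4.67 and 5.86 with FK506 and 5.89, 5.67 and 4.59 in the combination, and its groups overlapped throughout. Against Control it was called lower with FK506 without Control replicate 1 or FK506 replicate 3 and under no other setting. These 8 genes were described after their values were seen.

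The genes of the SREBP factors were lower than in Control in each drug group under TMM scaling, with log2 fold changes between -0.89 and -0.33. Srebf1 (gene ID 20787) was at 42.2, 43.3 and 42.1 FPKM in Control, 35.8, 34.1 and 34.7 with metformin, 26.2, 28.0 and 27.2 with FK506 and 28.4, 25.3 and 29.0 in the combination. Control was highest, metformin came next, and FK506 and the combination overlapped. Srebf1 fell with metformin (log2 fold change -0.33, SE 0.040, adjusted p = 3.68e-06) and with FK506 (log2 fold change -0.89, SE 0.041, adjusted p = 3.95e-12), and the combination had log2 fold change 0.04, SE 0.041, adjusted p = 0.467 against FK506. Srebf2 (gene ID 20788) was at 92.0, 93.2 and 89.3 FPKM in Control, 68.6, 65.3 and 69.8 with metformin, 75.1, 81.9 and 75.6 with FK506 and 81.8, 76.5 and 81.7 in the combination. Control was again highest and metformin lowest, with FK506 and the combination overlapping between them. Srebf2 fell with metformin (log2 fold change -0.46, SE 0.037, adjusted p = 1.89e-08), and its fall with FK506 (log2 fold change -0.43, SE 0.037, adjusted p = 1.46e-08) turned to 0.06 with scaling to the T cell markers. Its change with the combination (-0.39) went to -0.0005 (adjusted p = 0.992) under that scaling, so both calls were lost.

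Insig1 (gene ID 231070), itself a classic SREBP target, was at 39.1, 38.4 and 38.4 FPKM in Control, 18.0, 18.6 and 18.7 with metformin, 21.1, 21.1 and 19.4 with FK506 and 17.4, 17.0 and 16.8 in the combination. Control stood above the other 9 samples, and these lay close together. It fell with metformin (log2 fold change -1.10, SE 0.040, adjusted p = 1.34e-12) and with FK506 (log2 fold change -1.13, SE 0.040, adjusted p = 1.3e-13), and again when metformin was added to FK506 (log2 fold change -0.24, SE 0.041, adjusted p = 0.000258). Its change when FK506 was added to metformin (-0.27) turned to 0.04 with scaling to the T cell markers. Stard4, which carries sterol between membranes, fell with metformin (log2 fold change -0.98), FK506 (-1.63) and the combination (-1.83). The promoter of Insig1 held an E-box match (chr5:28071281-28071346, plus strand) beginning 101 bases before the start, and that of Srebf2 a CCAAT match (chr15:82147104-82147168, plus strand) beginning 135 bases before it, shown because these genes regulate the rest.
Insig1: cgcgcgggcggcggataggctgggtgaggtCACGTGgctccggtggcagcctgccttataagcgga
Srebf2: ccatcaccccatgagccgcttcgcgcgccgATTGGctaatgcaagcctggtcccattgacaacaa

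**Figure D3:**
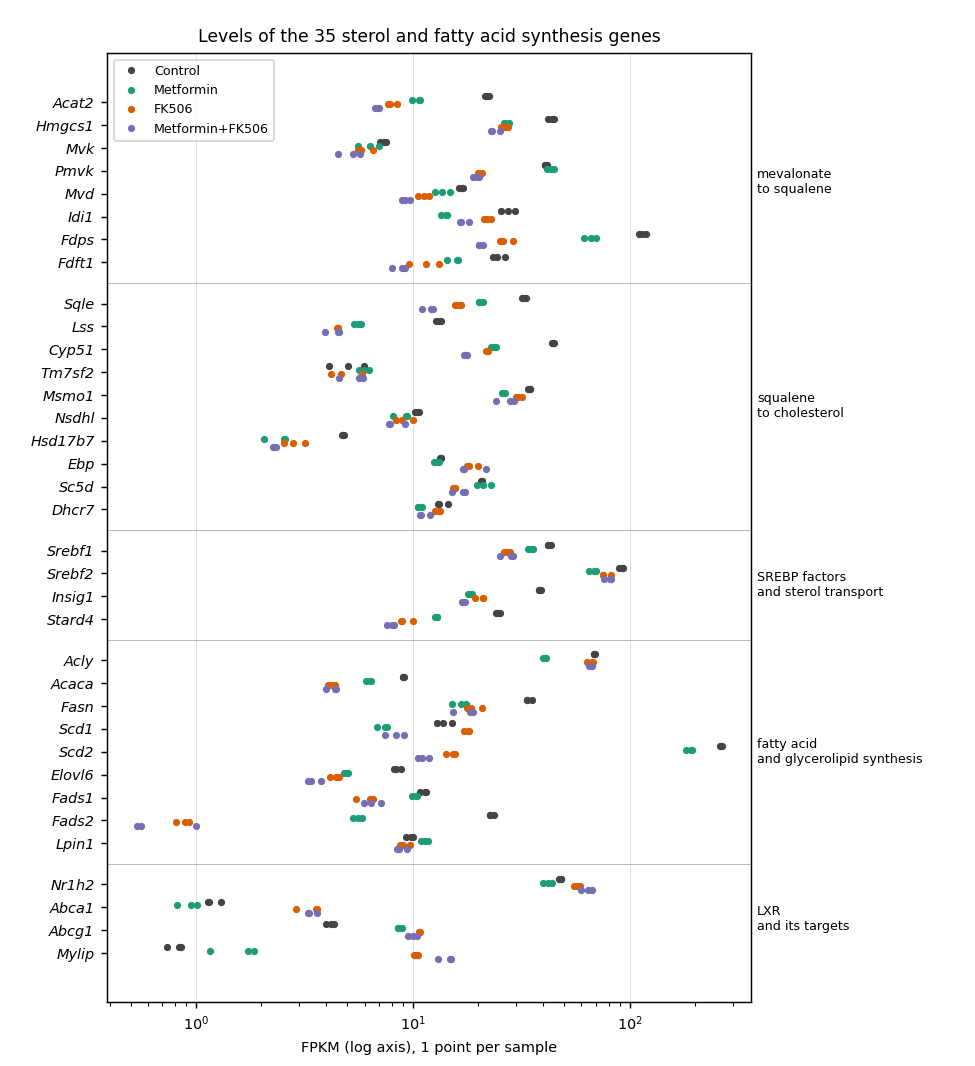
FPKM (log axis) of each of the 35 genes in the 12 samples, 1 point per sample, coloured by group and arranged by role. Black Control points lie to the right of the others in most synthesis genes, Scd2 spans 10.6 to 266 and Fads2 0.533 to 23.7, and Control points lie lowest for Abcg1 and Mylip but not for Abca1.

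The fatty acid and glycerolipid genes held the 2 largest falls with FK506, those of Fads2 and Scd2. Their sum was 438 to 446 FPKM in Control, 283 to 298 with metformin, 137 to 147 with FK506 and 121 to 129.6 with the combination. Scd2 set this order: without it the other 8 genes summed to 176 to 181 FPKM in Control, 100.2 to 104 with metformin, 123 to 132 with FK506 and 110.6 to 118 with the combination, so metformin was the lowest group. Scd2 (gene ID 20250), which adds a double bond to saturated fatty acids, was at 265, 266 and 262 FPKM in Control, 194, 183 and 192 with metformin, 14.3, 15.4 and 15.6 with FK506 and 11.0, 10.6 and 11.9 in the combination. It was the most abundant member in Control and ranked 17 of 35 with FK506, and its groups were apart. Scd2 fell modestly with metformin (log2 fold change -0.51, SE 0.041, adjusted p = 2.51e-08), steeply with FK506 (log2 fold change -4.34, SE 0.048, adjusted p = 1.75e-19), and again when metformin was added to FK506 (log2 fold change -0.41, SE 0.044, adjusted p = 2.86e-06). It made up 22.3% ± 0.243 (SD, n = 3) of the members' summed FPKM in Control samples, 23.3% ± 0.487 with metformin, 2.40% ± 0.105 with FK506 and 1.91% ± 0.0778 in the combination.

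Scd1 (gene ID 20249), the sister gene of Scd2, had another order, at 12.9, 15.2 and 13.8 FPKM in Control, 6.88, 7.46 and 7.57 with metformin, 17.2, 18.1 and 18.0 with FK506 and 9.16, 8.39 and 7.48 in the combination. Metformin and the combination were low and overlapped, and Control and FK506 were high. Scd1 fell with metformin whether FK506 was absent (log2 fold change -0.97, SE 0.071, adjusted p = 7.24e-09) or present (log2 fold change -1.06, SE 0.070, adjusted p = 1.26e-08). FK506 alone did not pass the test (log2 fold change 0.13, SE 0.068, adjusted p = 0.0821), although its FPKM values lay above Control, and it was called higher under 5 of the 7 alternative settings and without Control replicate 2 (0.1975, adjusted p = 0.0201). Over all genes tested, the median log2 ratio of FPKM in this comparison was 0.19. The ratio of Scd2 to Scd1 FPKM was 17.5 to 20.5 in Control, 24.5 to 28.2 with metformin, 0.829 to 0.867 with FK506 and 1.20 to 1.59 with the combination. How reads shared by these 2 similar genes were counted is not stated, so the split between them is uncertain.

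Fads2 (gene ID 56473) was at 22.6, 23.7 and 22.6 FPKM in Control, 5.85, 5.33 and 5.61 with metformin, 0.811, 0.933 and 0.888 with FK506 and 0.558, 0.533 and 1.00 in the combination. Control, metformin and the FK506-treated samples formed 3 steps, while FK506 and the combination overlapped, with 129 to 173 counts per sample in FK506 and 91 to 137 in the combination. It fell with metformin (log2 fold change -2.07, SE 0.11, adjusted p = 1.27e-10) and with FK506 (log2 fold change -4.93, SE 0.13, adjusted p = 3.76e-15), and adding metformin to FK506 did not pass (log2 fold change -0.34, SE 0.17, adjusted p = 0.136). That last value rested on single libraries of the combination: it was -0.6534 and passed (adjusted p = 0.000258) without replicate 3 and -0.1834 without replicate 2, and it also passed with DESeq2 (adjusted p = 0.0477) and the T cell marker scaling (adjusted p = 0.0496). Fads1, the partner desaturase, fell with FK506 (log2 fold change -1.10, SE 0.071, adjusted p = 3.66e-10).

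Fasn (gene ID 14104), fatty acid synthase, was at 35.5, 33.5 and 33.7 FPKM in Control, 17.7, 15.2 and 16.6 with metformin, 17.9, 20.9 and 18.5 with FK506 and 19.0, 15.3 and 18.3 in the combination. Control was above the rest, and the 3 drug groups overlapped one another. Its falls were alike in size with metformin (log2 fold change -1.08, SE 0.070, adjusted p = 1.58e-09), with FK506 (log2 fold change -1.06, SE 0.070, adjusted p = 4.56e-10) and with the combination (log2 fold change -1.16, SE 0.070, adjusted p = 1.4e-10). Acaca (gene ID 107476), the carboxylase that makes malonyl-CoA, was at 9.11, 9.05 and 8.98 FPKM in Control, 6.35, 6.09 and 6.46 with metformin, 4.09, 4.39 and 4.26 with FK506 and 4.44, 3.98 and 4.40 in the combination. Control was highest, metformin lay between, and FK506 and the combination overlapped (metformin against Control log2 fold change -0.58, SE 0.044, adjusted p = 1.13e-08, FK506 against Control log2 fold change -1.32, SE 0.045, adjusted p = 6.63e-14). Acly (gene ID 104112), which makes cytosolic acetyl-CoA from citrate, was at 69.2, 68.8 and 68.2 FPKM in Control, 41.2, 39.7 and 40.3 with metformin, 63.8, 67.3 and 67.5 with FK506 and 65.6, 64.8 and 67.4 in the combination. Metformin alone was low and the other 3 groups were close together. It fell with metformin (log2 fold change -0.80, SE 0.033, adjusted p = 5.57e-12) and was higher in the combination than with metformin (log2 fold change 0.54, SE 0.033, adjusted p = 1.77e-10), while its small falls against Control with FK506 (-0.27) and the combination (-0.25) turned to 0.22 and 0.13 with scaling to the T cell markers. Lpin1 (gene ID 14245) was at 9.34, 10.1 and 9.83 FPKM in Control, 11.3, 10.9 and 11.7 with metformin, 9.02, 9.75 and 8.78 with FK506 and 9.43, 8.47 and 8.64 in the combination. It was highest with metformin, above all Control samples (log2 fold change 0.18, SE 0.050, adjusted p = 0.00606), and FK506 overlapped Control. Its falls with FK506 (-0.31) and the combination (-0.34) turned to 0.18 and 0.04 with scaling to the T cell markers. Elovl6, a fatty acid elongase, fell with metformin (-0.81), FK506 (-1.17) and the combination (-1.47).

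**Figure D4:**
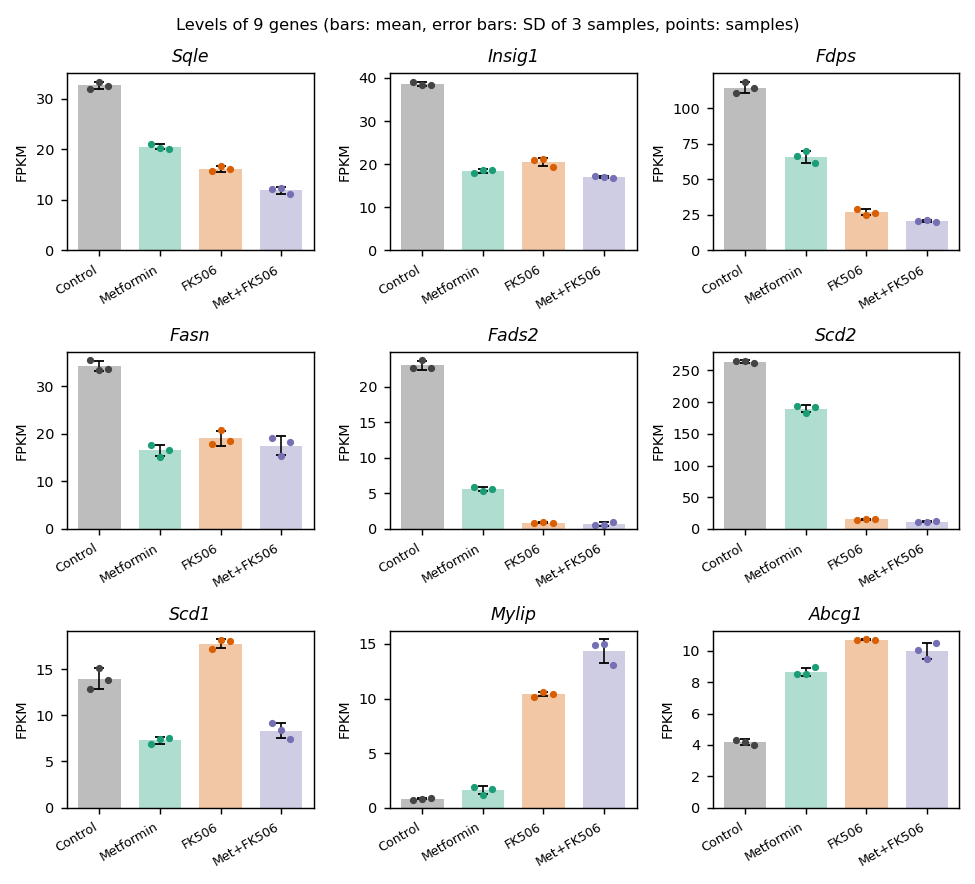
FPKM of 9 genes in 4 groups; bars are means, error bars the SD of 3 samples and points the samples, on axes that start at 0. Sqle falls from group to group, Fasn and Insig1 are lower in the 3 drug groups than in Control, Scd1 is low in the 2 groups with metformin, and Mylip and Abcg1 are lowest in Control.

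In the LXR arm Abcg1 and Mylip rose in each drug group, and Abca1 fell with metformin and rose with FK506 and with the combination. Abcg1 (gene ID 11307), which exports cholesterol, was at 4.33, 4.22 and 3.99 FPKM in Control, 8.53, 8.53 and 8.97 with metformin, 10.7, 10.8 and 10.7 with FK506 and 10.0, 9.49 and 10.5 in the combination. All 9 drug-treated samples were above Control, and it rose with metformin (log2 fold change 1.02, SE 0.046, adjusted p = 1.6e-11) and with FK506 (log2 fold change 1.14, SE 0.046, adjusted p = 5.89e-13). Adding metformin to FK506 did not pass (log2 fold change -0.08, SE 0.044, adjusted p = 0.205). With scaling to the T cell markers it was called lower there (-0.1788, adjusted p = 0.0069), beside a median of -0.10 over all genes. Abca1 (gene ID 11303), the other exporter, was at 1.13, 1.15 and 1.31 FPKM in Control, 1.01, 0.823 and 0.952 with metformin, 2.90, 3.64 and 3.57 with FK506 and 3.32, 3.28 and 3.64 in the combination. Here metformin was below Control (log2 fold change -0.39, SE 0.10, adjusted p = 0.00335, a call lost with limma, at -0.1869 and adjusted p = 0.066) and the 6 samples with FK506 were above it (FK506 against Control log2 fold change 1.28, SE 0.095, adjusted p = 2.25e-09). Mylip (gene ID 218203) was at 0.738, 0.832 and 0.852 FPKM in Control, 1.84, 1.16 and 1.74 with metformin, 10.2, 10.6 and 10.4 with FK506 and 14.9, 15.04 and 13.0 in the combination. The groups were apart, in the order Control, metformin, FK506 and combination (metformin against Control log2 fold change 0.93, SE 0.15, adjusted p = 4.57e-05, FK506 against Control log2 fold change 3.46, SE 0.13, adjusted p = 4.02e-13, combination against FK506 log2 fold change 0.49, SE 0.11, adjusted p = 0.00252). Nr1h2 (gene ID 22260), the LXR form found in most tissues, was at 48.1, 48.5 and 47.0 FPKM in Control, 43.7, 42.0 and 39.9 with metformin, 55.2, 57.0 and 59.0 with FK506 and 64.6, 59.6 and 67.0 in the combination. It was lowest with metformin (log2 fold change -0.22, SE 0.041, adjusted p = 0.000256) and highest with the combination (against FK506 log2 fold change 0.18, SE 0.041, adjusted p = 0.00281), a call lost with scaling to the T cell markers (0.0788, adjusted p = 0.178). The myeloid markers, which had summed FPKM of at least 1029 in every sample with FK506 and at most 10.2 in every sample without it, rose in the same FK506 comparisons, and their part in the LXR result was not tested. In metformin against Control, 1 of 10 myeloid markers was higher and 2 were lower, beside 28.6% and 27.4% of all genes tested. Their summed FPKM was 6.52 to 6.77 in Control and 8.94 to 10.2 with metformin. The part of these markers in the rise of Abcg1 and Mylip with metformin was not tested.

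The interaction tests whether the fold change with metformin is the same in the presence and absence of FK506. It was above 0 for 22 members, below 0 for 2 and did not pass for 11, where 46.5% of all genes tested passed, 22.5% above 0 and 24% below. The median was 0.40, beside -0.02 over all genes. With scaling to the T cell markers it was 0.22, beside -0.20, and the split became 18 above and 6 below, with the calls of Sqle, Msmo1, Fads1 and Abca1 lost. In the same test 9 of 10 B cell markers (median -1.49) and 8 of 10 cell division genes were below 0 (median -0.37), 2 myeloid markers were above 0 and 1 below, and their part in the result was not tested. For a gene that fell with metformin, a value above 0 means that the fall was smaller, absent or turned to a rise in the presence of FK506. Of the 27 members that metformin lowered on its own, 15 were lower when it was added to FK506, 11 did not pass, and Nr1h2 was higher. Of the 4159 genes of any kind that metformin lowered, 20.8% were lower when it was added to FK506, 15.9% were higher and 63.3% did not pass, and over all genes tested 15% were lower. The 2 comparisons share no samples.

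Fads2 had the largest interaction (1.73, SE 0.20, adjusted p = 2.74e-06): metformin took it from a mean of 23.0 to 5.59 FPKM without FK506 and from 0.877 to 0.697 with it. Lss followed (1.17, SE 0.069), from 13.2 to 5.59 without FK506 and from 4.53 to 4.34 with it. Fasn (0.98, SE 0.098) went from 34.2 to 16.5 without FK506 and from 19.1 to 17.5 with it. In each of these genes the FK506 samples were already below Control. Acly was not far below Control with FK506 (66.2 FPKM), and metformin, which brought it from 68.8 to 40.4 alone, left it at 65.9 in the combination (0.82, SE 0.046, adjusted p = 5.9e-10). Scd1 and Scd2 kept the metformin fall in the presence of FK506, with interactions of -0.10 (SE 0.099, adjusted p = 0.442) and 0.10 (SE 0.060, adjusted p = 0.202), which did not pass (Scd1 had -0.2769, adjusted p = 0.0347, with scaling to the T cell markers). Below 0 were Abcg1 (-1.10, SE 0.063, adjusted p = 6.9e-10), which rose with metformin alone and had a log2 fold change of -0.08 when metformin was added to FK506, and Lpin1 (-0.22, adjusted p = 0.0205). The Lpin1 call was lost without Control replicate 1 (adjusted p = 0.0558), FK506 replicate 2 (0.0592) or Metformin replicate 3 (0.058), the Abca1 call (0.43) without Control replicate 3 (adjusted p = 0.0508), and the Fads1 call (0.28) without any 1 of 5 libraries (Control replicates 1 and 2, FK506 replicate 1, Metformin replicate 3 and Metformin+FK506 replicate 3, adjusted p between 0.0608 and 0.0808).

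**Figure D5:**
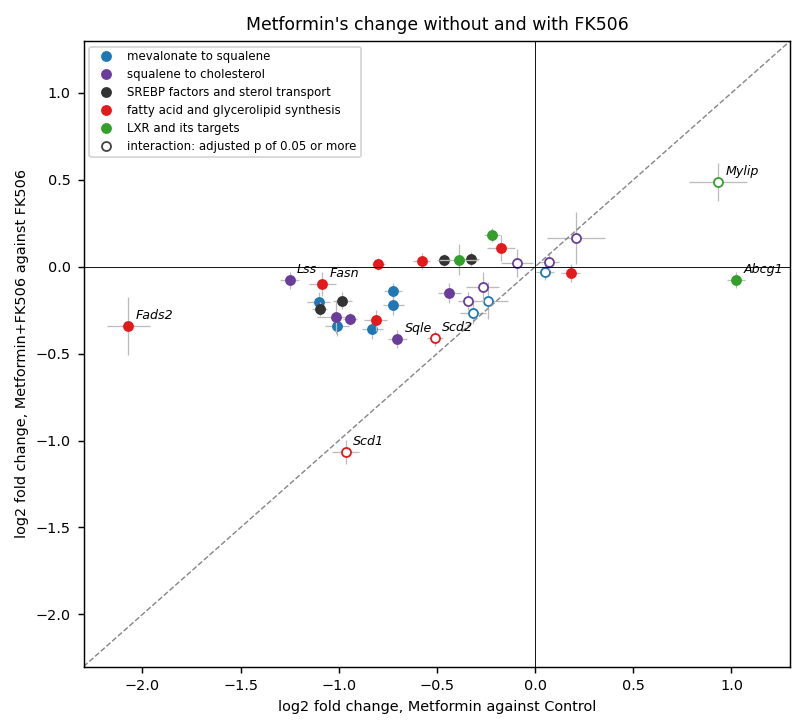
Log2 fold change of metformin against Control (horizontal axis) and of the combination against FK506 (vertical axis) for the 35 genes, coloured by role, with standard errors; filled points passed the interaction test and the dashed line marks equal change. Most synthesis genes lie left of 0 and above the line, near 0 on the vertical axis, while Scd1 lies near the line at -0.97 and -1.06.

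In the same way, of the 28 members that FK506 lowered on its own, 23 were lower when it was added to metformin, 4 did not pass (Idi1, Msmo1, Srebf2 and Fasn), and Acly was higher. That is near the share over the 6014 genes of any kind that FK506 lowered, of which 79.2% were lower, 14.8% did not pass and 5.97% were higher, beside 37.9% lower over all genes tested. These 2 comparisons share no samples either. With scaling to the T cell markers, Idi1 (0.44), Msmo1 (0.21), Srebf2 (0.39) and Fasn (0.24) were called higher when FK506 was added to metformin. The median of all genes was 0.34 under that scaling. For Msmo1 (-0.10) and Fasn (-0.07) the main value had the opposite sign.

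The order of levels within the set differed with FK506. In Control the most abundant members per length were Scd2 (264 ± 1.90 FPKM, SD, n = 3), Fdps (115 ± 4.05) and Srebf2 (91.5 ± 2.01), and the least abundant were Abca1 (1.20 ± 0.0971) and Mylip (0.807 ± 0.0608). With FK506 they were Srebf2 (77.6 ± 3.75), Acly (66.2 ± 2.09) and Nr1h2 (57.1 ± 1.89), and the least abundant were Hsd17b7 (2.84 ± 0.325) and Fads2 (0.877 ± 0.0619). With metformin Scd2 stayed first (189.6 ± 5.82), and Srebf2 (67.9 ± 2.34) and Fdps (66.0 ± 4.23) came next, closer together than their spread. The 35 genes summed to 1173 to 1197 FPKM in Control, 804 to 821 with metformin, 625 to 635 with FK506 and 571 to 596 with the combination.

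Beyond the 35, the other genes of these pathways moved both ways. A list of 28 further genes held 26 that were tested. Of 17 tested synthesis and SREBP-processing genes, 8 fell and 5 rose with metformin, and 9 fell and 5 rose with FK506 and with the combination. Over all genes tested the shares were 27.4% lower and 28.6% higher with metformin, 39.6% and 41.3% with FK506, and 39.6% and 42.1% with the combination. Me1, the malic enzyme that supplies NADPH for fatty acid synthesis, moved most. It was at 0.226, 0.157 and 0.340 FPKM in Control, 0.0559, 0.0769 and 0.0568 with metformin, 2.19, 2.63 and 2.66 with FK506 and 4.19, 4.26 and 4.84 in the combination, on 11 to 15 counts per sample with metformin. It was lowest with metformin (log2 fold change -1.92, SE 0.29, adjusted p = 3.59e-05) and far above Control with FK506 (log2 fold change 3.10, SE 0.20, adjusted p = 2.81e-10).

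Of 9 tested LXR and cholesterol handling genes, 4 rose and 3 fell with metformin, and 8 rose and 1 fell with FK506 and with the combination. Of all genes tested, 28.6% rose and 27.4% fell with metformin, 41.3% rose and 39.6% fell with FK506, and 42.1% rose and 39.6% fell in the combination. Nr1h3, the LXR form known from macrophages and liver, was at 0.286, 0.139 and 0.211 FPKM in Control, 0.734, 0.960 and 0.857 with metformin, 17.6, 18.4 and 19.3 with FK506 and 15.1, 17.5 and 16.8 in the combination. All 6 samples with FK506 were at or above 15.1 FPKM and all others at or below 0.960 (metformin against Control log2 fold change 1.80, SE 0.20, adjusted p = 1.22e-06, FK506 against Control log2 fold change 6.09, SE 0.16, adjusted p = 1.88e-15). Cyp27a1, a sterol hydroxylase, had 0 to 8 counts per sample in Control and 0 to 10 with metformin, and was at 3.57 to 4.28 FPKM with FK506 and 1.26 to 2.01 with the combination. Apoe, the carrier of cholesterol in lipoproteins, was at 4.17, 3.67 and 3.26 FPKM in Control, 4.02, 4.01 and 4.46 with metformin, 92.8, 93.7 and 94.2 with FK506 and 94.4, 108 and 99.6 in the combination, and Rxra, the partner of LXR on DNA, was at 3.67, 3.70 and 3.42 FPKM in Control, 1.41, 1.503 and 1.35 with metformin, 13.0, 13.5 and 13.5 with FK506 and 13.3, 12.7 and 13.3 in the combination. Rxra fell with metformin alone (log2 fold change -1.36, SE 0.059, adjusted p = 9.88e-12) and was high in both FK506 groups. Arl4c, an LXR target, was at 13.1, 12.6 and 12.5 FPKM in Control, 13.2, 12.9 and 13.4 with metformin, 25.6, 25.4 and 25.8 with FK506 and 39.3, 41.8 and 38.4 in the combination and rose further when metformin was added to FK506 (log2 fold change 0.66, SE 0.042, adjusted p = 7.8e-09). Lyz2, the most abundant myeloid marker of the list, was at 0 to 0.126 FPKM in the 6 samples without FK506 and at 483 to 993 in the 6 with it, and its part in these values was not tested.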

How the data were processed

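Splenic CD4+ T cells were sequenced as polyadenylated RNA in 12 samples, 3 in each of 4 groups, which were taken from the treatment labels. The table the authors deposited gives each gene a raw read count and an FPKM value (the count scaled to library size and transcript length) in every sample. The 12 TPM columns of the same table were not used. The submitters' processing notes name bcl2fastq 2.20.0, Trimmomatic, HISAT2 2.1.0, StringTie 2.1.3b and mm10. The treatment of strand and of reads shared by paralogs or pseudogenes is not given in the sources used here. The labels give an age of 7 weeks, while the study's methods describe the mice and the stimulation differently, and the labels were followed.

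Counts were tested with edgeR 4.0.16 (TMM, glmQLFit, glmQLFTest) in R 4.3.3, in 1 fit of all 4 groups, on the 15197 genes that reached an FPKM of 0.5 in 3 or more samples. A further 18141 genes had no count in any sample. The study's methods name general tests between groups and do not say which, if any, was applied to these counts. The threshold was a Benjamini-Hochberg adjusted p under 0.05 over all genes tested, and SE is the log2 fold change divided by the root of the F statistic. The 4 groups gave 5 pairwise comparisons and 1 interaction. FPKM served for levels, sums and overlap of groups. Totals of 43402632 to 64290105 counts per sample set the precision of low genes. Between replicates, chi-square per degree of freedom was 4.10 to 16.0, above sampling noise for every pair.

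Alternatives were RLE size factors, DESeq2 1.42.0, no filter, limma 3.58.1 on log2(FPKM + 1), only the groups compared, scaling to the summed counts of the 12 T cell markers, a replicate block, and leaving out each replicate. On simulated counts for 15197 genes (metformin against Control, 200 genes changed 2-fold), edgeR called 169 of the 200 with 8 false calls, DESeq2 170 with 22 and limma 164 with 9. In the data 56% of genes passed with metformin against Control and 80.9% with FK506. The simulation changed far fewer genes and added no RNA of other cells, so it does not test the scaling or the false calls under such broad change.

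The members and the gene lists were chosen with earlier results of these data known. Genes given sample by sample were, in each comparison, up to 3 members that rose most and up to 3 that fell most among called members with non-overlapping groups, 12 pathway genes taken whatever their values (Srebf1, Srebf2, Insig1, Hmgcs1, Sqle, Acaca, Fasn, Scd1, Scd2, Abca1, Abcg1 and Mylip), and up to 3 genes a comparison from the 28 other pathway genes. Tm7sf2, called in no comparison of all 12 samples, was given sample by sample outside this rule, after its values were seen. Promoter sequences are from RefSeq (GRCm38.p6).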

Additional observations from a re-analysis of the deposited data

Results flagged for a closer look

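For 24 of the 35 members, the change with metformin differed with and without FK506 in the interaction test (edgeR's quasi-likelihood test, adjusted p under 0.05), where 46.5% of all genes tested passed it. Each value below is the log2 fold change of the combination against FK506 minus that of metformin against Control. In the trunk of the pathway it was 0.90 for Acat2, 0.59 for Hmgcs1, 0.67 for Idi1, 0.47 for Fdps and 0.50 for Fdft1. From squalene to cholesterol it was 0.29 for Sqle, 1.17 for Lss, 0.64 for Cyp51, 0.29 for Msmo1 and 0.73 for Hsd17b7. All 4 genes of the SREBP and sterol transport group passed, with 0.37 for Srebf1, 0.50 for Srebf2, 0.85 for Insig1 and 0.78 for Stard4. Among the fatty acid genes it was 0.82 for Acly, 0.61 for Acaca, 0.98 for Fasn, 0.50 for Elovl6, 0.28 for Fads1, 1.73 for Fads2 and -0.22 for Lpin1. In the LXR arm it was 0.40 for Nr1h2, 0.43 for Abca1 and -1.10 for Abcg1. With libraries scaled to the T cell markers, 4 of these no longer passed: Sqle (0.1075, adjusted p = 0.239), Msmo1 (0.1068, adjusted p = 0.294), Fads1 (0.1037, adjusted p = 0.435) and Abca1 (0.2524, adjusted p = 0.147). With limma on log2(FPKM + 1), Fdft1 (0.2898, adjusted p = 0.0947), Fads1 (0.205, adjusted p = 0.111) and Abca1 (0.2037, adjusted p = 0.156) did not pass, and Fads1 (adjusted p = 0.0508) did not pass with no filter on low values.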

How the results depend on the processing

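Of the 12 counts of members called (higher and lower in 6 comparisons), every count stayed within 1.5 times its value with RLE size factors, DESeq2 and no filter, as did the 10 of the 5 pairwise comparisons with only the groups compared, a setting that the interaction does not have. With scaling to the T cell markers, 5 members were higher with metformin (main value 3), 9 with FK506 (4), 1 with the combination against FK506 (2) and 12 with the combination against metformin (5), and 6 had an interaction below 0 (2). With limma on log2(FPKM + 1), 9 were higher with the combination against metformin. Leaving out 1 library at a time gave 1 to 3 members with an interaction below 0, the low value being without Control replicate 1, FK506 replicate 2 or Metformin replicate 3, each of which removed Lpin1.

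Scaling to the T cell markers moved the median log2 fold change of all genes from 0.02 to 0.51 in FK506 against Control, from 0.03 to 0.42 in the combination against Control and from 0.02 to 0.34 in the combination against metformin, so members with small falls moved past 0 with all other genes, still below those medians: Msmo1 (0.10), Nsdhl (0.0695), Dhcr7 (0.20), Srebf2 (0.0639), Acly (0.22) and Lpin1 (0.18) in FK506 against Control, Acly (0.13) and Lpin1 (0.0435) in the combination against Control, and Nsdhl (0.041), Hsd17b7 (0.0831), Dhcr7 (0.16) and Insig1 (0.0396) in the combination against metformin. In the combination against metformin, Msmo1 (0.2078, adjusted p = 0.00353) and Fasn (0.2376, adjusted p = 0.00729) also moved past 0 under that scaling. Both were called higher there and had not passed in the main fit. Limma turned Dhcr7 (0.0649) in the same comparison. The T cell marker scaling also ended, without a turn, the calls of Nsdhl and Fads1 with metformin, Mvk, Idi1 and Sc5d with FK506, Nsdhl, Sc5d, Dhcr7 and Srebf2 with the combination, Nr1h2 in the combination against FK506, Hmgcs1 (-0.0324, adjusted p = 0.54) and Mvk (-0.1475, adjusted p = 0.222) in the combination against metformin, and the interactions of Sqle, Msmo1, Fads1 and Abca1. Limma also ended the calls of Fads1 (-0.1294, adjusted p = 0.145) and Abca1 (-0.1869, adjusted p = 0.066) with metformin, of Dhcr7, Acly and Lpin1 with FK506, of Acly with the combination, of Hsd17b7 in the combination against FK506, of Nsdhl and Hsd17b7 in the combination against metformin, and the interactions of Fdft1, Fads1 and Abca1. The cause of the changes with limma was not tested. With only the groups compared, Acat2 (adjusted p = 0.0959), Hmgcs1 (0.0763) and Hsd17b7 (0.0659) lost their calls in the combination against FK506, and Hsd17b7 (0.0643) its call against metformin, which also went with RLE size factors (0.0517). Fads1 lost its interaction call with no filter on low values (0.0508).

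Some members that did not pass were called by alternatives. Scd1 with FK506 was called higher with RLE size factors (0.15, adjusted p = 0.0449), DESeq2, limma, only the groups compared, the T cell marker scaling and without Control replicate 2. Idi1 and Srebf2 were called higher, and Msmo1 in the combination against FK506 lower, with RLE size factors, DESeq2, limma and the T cell marker scaling, Idi1 and Srebf2 in the combination against metformin. Mylip had an interaction below 0 with DESeq2 (-0.46, adjusted p = 0.0232), the T cell marker scaling, and without Metformin replicate 2 or Metformin+FK506 replicate 2. Tm7sf2 was called lower with FK506 without Control replicate 1 (adjusted p = 0.0309) or FK506 replicate 3 (0.0277). Nr1h2 with FK506 (0.06 in the main fit) was called higher with limma (0.2483, adjusted p = 0.000324) and with the T cell marker scaling (0.5521, adjusted p = 4.17e-09). The medians of all genes there were 0.19 and 0.51.

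The replicate numbers showed no pairing of the samples: same-numbered samples had correlations of their deviations from -0.0857 to 0.0539, and others from -0.0626 to 0.0788. With 3 samples a group, this cannot exclude a shared mouse or batch. With replicate number as a block, 26 members were lower with metformin (27 without it), 13 with the combination against FK506 (15) and 22 with the combination against metformin (23), and no count moved by over 1.5 times. The block ended the calls of Fads1 with metformin (adjusted p = 0.0575), Hmgcs1 (0.0521) and Hsd17b7 (0.0533) in the combination against FK506, and Hsd17b7 (0.0613) in the combination against metformin.

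With 3 samples a group, small changes such as those of Fads1 with metformin and of Hsd17b7 and Dhcr7 with FK506 added to metformin lie at the edge of what the test can call. Depth was not limiting for most members, which had at least 117 counts in every Control sample, while Fads2 had 91 to 173 in the FK506 groups. The groups with FK506 also carried B cell and myeloid RNA, so a change per T cell cannot be read from these libraries.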
